A study of Homo sapiens with 4 samples.

Results

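Histone methylation and acetylation enzymes were examined in RNA maps of 2 binding proteins. The cells were MDA-MB-231, a human breast cancer line long kept in culture. The members were the 64 protein-coding genes, of 19993 outside chromosome Y, that carry a symbol beginning KMT, KDM, KAT, HDAC or SETD and a number, or are SETDB1, SETDB2, EZH1, EZH2, NSD1, NSD2, NSD3, EP300 or CREBBP. The rule reads gene names alone, and the group was proposed with earlier results of these data known. A peak belonged to a member when the list gave that member's gene ID, which held for 71 of 9107 HNRNPC peaks and 522 of 63507 PABPC4 peaks. HNRNPC, a mostly nuclear protein that binds U-rich RNA, was mapped by irCLIP in 2 samples, although the name of the deposited list gives HITS-CLIP. PABPC4, a poly(A)-binding protein, was mapped by PAPERCLIP in 2 samples, in which reverse transcription is primed from poly(A) and so marks mRNA 3′ ends. Both assays bond protein to RNA with ultraviolet light, and the immunoprecipitated fragments are sequenced as tags. All 4 samples were of the same line with no treatment or genetic change named in the labels, and 1 antibody was used per protein. The samples of a protein were pooled before peaks were called, so replicate error could not be given and no difference between groups of genes was tested. Peak height is counted in unique tags of the pooled samples at the top of the peak. In the PABPC4 list VIM, an intermediate filament gene of mesenchymal cells, had a 3′ UTR peak of 10197 tags, and the epithelial genes KRT8, KRT18 and CDH1 had tallest 3′ UTR peaks of 170, 301 and 56 tags.

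The 64 genes fall into 4 classes. Histone methyltransferases (24 members) and demethylases (19 members) are named for adding and removing methyl groups on histone lysines. The classes follow gene symbols, and they also hold enzymes with substrates other than histones. Acetyltransferases (10 members) and deacetylases (11 members) add and remove acetyl groups, and acetylated histones mark open chromatin. HNRNPC coats nascent transcripts and is known to bind the U tracts made when an Alu element, a short primate repeat, is transcribed from its antisense strand. Sense Alu elements end in an A stretch, which an oligo(dT) primer can also find.

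The sequences around the tallest HNRNPC intron peak of the demethylases, acetyltransferases and deacetylases show how different these sites were. Each holds the peak and the 50 nt before it, 5′ to 3′ on the transcribed strand in GRCh38 with T for U. Capitals mark runs of at least 5 T and the hexamer GTGTCA, which recurred at peak ends throughout the HNRNPC list. These letters also begin a 3′ linker used in some CLIP protocols. The linker sequence of these libraries is not given in the sources used here, and whether peaks ending in the hexamer mark HNRNPC binding or priming at linker-like sequence was not tested.
KDM4B, chr19:5119194-5119372, plus strand: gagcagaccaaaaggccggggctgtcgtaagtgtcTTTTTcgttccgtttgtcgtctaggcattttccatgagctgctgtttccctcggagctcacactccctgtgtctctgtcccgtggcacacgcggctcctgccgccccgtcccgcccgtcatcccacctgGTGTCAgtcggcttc
CREBBP, chr16:3776470-3776635, minus strand: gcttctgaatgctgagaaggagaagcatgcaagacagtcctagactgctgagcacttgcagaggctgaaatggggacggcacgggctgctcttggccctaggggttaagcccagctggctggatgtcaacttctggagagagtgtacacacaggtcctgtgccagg
HDAC7, chr12:47813974-47814158, minus strand: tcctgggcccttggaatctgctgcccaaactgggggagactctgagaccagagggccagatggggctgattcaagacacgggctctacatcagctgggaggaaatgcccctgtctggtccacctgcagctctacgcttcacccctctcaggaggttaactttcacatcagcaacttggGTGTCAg
The KDM4B window held 1 T run. The CREBBP and HDAC7 windows held 0, with at most 2 and 3 T in a row. GTGTCA lay at the end of the KDM4B and HDAC7 peaks.

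Poly(A) signals are shown for KAT14, the gene whose poly(A) sites the study cloned as a reporter, and for the tallest PABPC4 3′ UTR peak of each class that had a signal in its last 40 nt. Each line is a 30-nt window, and capitals mark AATAAA or ATTAAA.
KAT14, chr20:18188011-18188040, plus strand: aaAATAAActagatgtttgtgtctacatgt
NSD2, chr4:1982171-1982200, plus strand: gtATTAAAaacattttaaaggcttttttct
KDM5C, chrX:53192281-53192310, minus strand: gtAATAAAagaagattgttggtgtgtaatt
KAT2A, chr17:42113107-42113136, minus strand: atAATAAAgctttttatttctctgtgtgat
HDAC2, chr6:113940709-113940738, minus strand: ttATTAAAaaattgtacttggattatcttt
The signal began 21 nt before the end of the peak in KAT14, KAT2A and HDAC2, 29 nt before it in NSD2 and 37 nt before it in KDM5C.

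HNRNPC peaks were found in 35 of the 64 genes, or 54.7% (95% Wilson interval 42.6 to 66.3%), against 19.1% of all coding genes. PABPC4 peaks were found in 60 of 64, or 93.8% (85 to 97.5%), against 59.3%. KDM4D, KDM4E, KDM4F and SETD9 had no peak in either list, and a missing peak does not separate an unbound RNA from one that was little expressed. The members were long genes, with a median of 55.5 kb against 24.1 kb over all coding genes, so the shares were also taken within bins of length. Under 30 kb, 7 of 19 members had an HNRNPC peak (36.8%, 19.1 to 59%), against 8.58% of coding genes of that length. Between 30 and 100 kb it was 14 of 26 (53.8%, 35.5 to 71.2%) against 28.1%. At 100 kb or more it was 14 of 19 (73.7%, 51.2 to 88.2%) against 39.3%. In each bin the lower bound for the members lay above the share of all coding genes of that length. For PABPC4 the shares were 78.9% (56.7 to 91.5%), 100% (87.1 to 100%) and 100% (83.2 to 100%) of members, against 46.8, 71.7 and 80.8%.

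Expression was not measured in these lists, and its part in these shares was not tested. As a rough stand-in, genes with a PABPC4 3′ UTR peak were taken alone. Such a peak was listed for 51 of 64 members (79.7%, 68.3 to 87.7%), against 48.9% of coding genes. Of these 51, 30 had an HNRNPC peak (58.8%, 45.2 to 71.2%), against 34.4% of the coding genes with a PABPC4 3′ UTR peak. An HNRNPC peak whose end lacked GUGUCA, an alternative chosen after seeing the data, was found in 20 of 64 members (31.2%, 21.2 to 43.4%), against 13.2% of coding genes. An HNRNPC peak at or above the list's median height of 11 tags was found in 17 of 64 members (26.6%, 17.3 to 38.5%), against 10.7% of coding genes. None of these shares was split by gene length. For HDAC10, counted among the 51, the listed 3′ UTR peak lay in another gene.

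**Figure D1:**
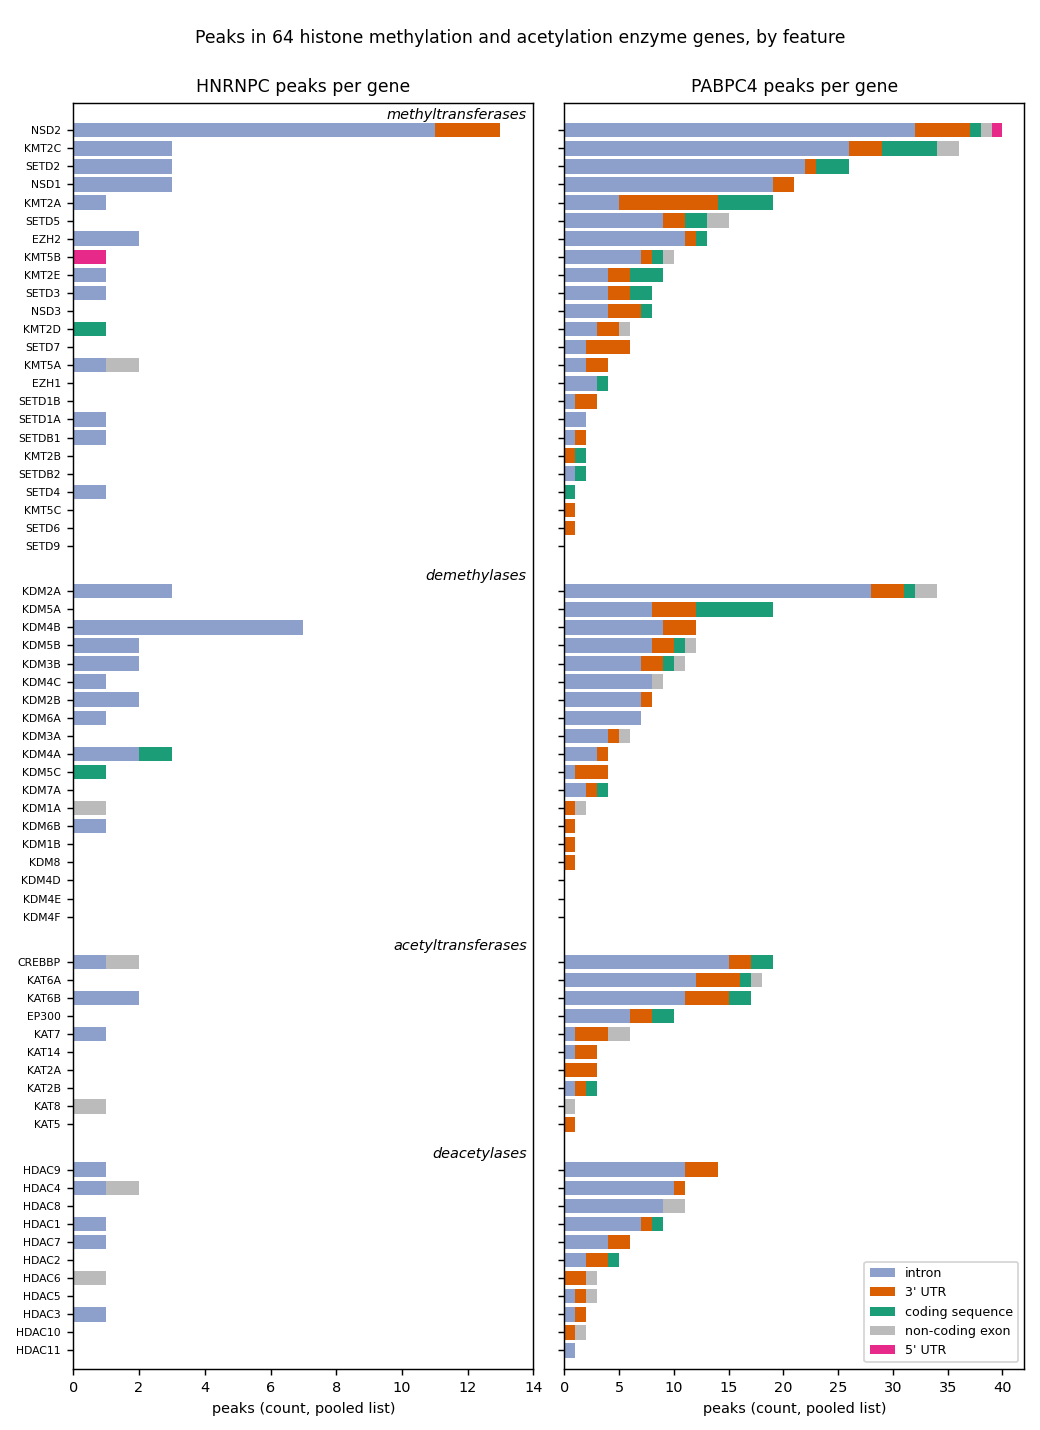
Number of HNRNPC (left) and PABPC4 (right) peaks in each of the 64 genes, counted in the pooled list of each protein and coloured by the feature at the peak centre. NSD2 leads both panels, with 13 and 40 peaks, and 29 genes have no HNRNPC peak.

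**Figure D2:**
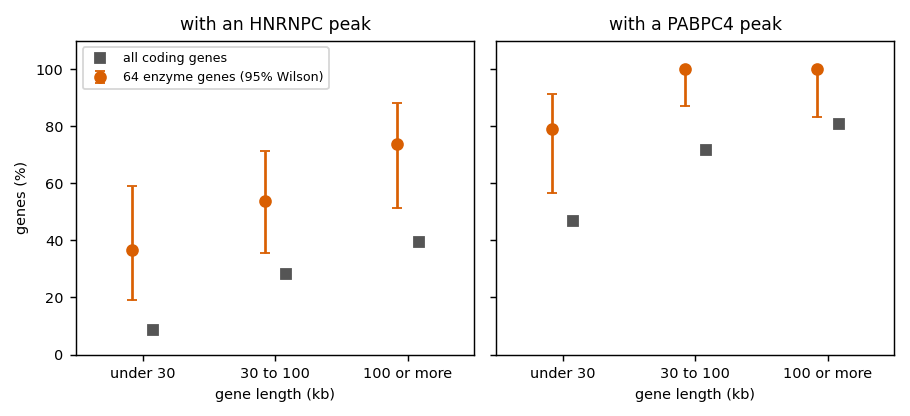
Percentage of genes with a peak by gene length in kb, for the 64 enzyme genes (circles, with 95% Wilson intervals) and all coding genes (squares). The enzyme genes lie above all coding genes in every bin of both panels.

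HNRNPC peaks were spread thinly, as over the whole list. Among genes with a peak the median was 1 peak, both in members and in all coding genes. Of the 35 genes, 20 had 1 peak, 8 had 2, 5 had 3, KDM4B had 7 and NSD2 had 13. By class, 14 of 24 methyltransferase genes had a peak, 11 of 19 demethylase genes, 4 of 10 acetyltransferase genes and 6 of 11 deacetylase genes. The intervals of the 4 shares, 38.8 to 75.5%, 36.3 to 76.9%, 16.8 to 68.7% and 28 to 78.7%, all overlapped. Over the whole length of the genes there were 1.94 HNRNPC peaks per 100 kb in methyltransferases, 1.25 in demethylases, 0.737 in acetyltransferases and 0.4 in deacetylases. NSD2 alone gave 13 of the 34 methyltransferase peaks, and without it their density was 1.28. HDAC9, the longest deacetylase gene at 915592 nt, had 1 peak, and the deacetylase density was not taken without it. The medians over genes were 1.05, 0.417, 0 and 0.109 per 100 kb in the same order, so acetyltransferases and deacetylases changed places. The pooled density was 1.14 over all members, 0.946 without NSD2 and 0.726 over all coding genes. Among genes with an HNRNPC peak the order was the opposite, with a median of 2.16 per 100 kb in members and 2.61 in all coding genes.

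Introns held 59 of the 71 HNRNPC peaks, or 83.1% (72.7 to 90.1%), against 85.5% of the list. Non-coding exons held 6 (8.45%, 3.93 to 17.2%) against 5.93%, coding sequence held 3 (4.23%, 1.45 to 11.7%) against 1.94%, 3′ UTRs held 2 (2.82%, 0.776 to 9.7%) against 4.97%, and 5′ UTRs held 1 (1.41%, 0.249 to 7.56%) against 1.42%. Each of these list shares lay inside the members' interval. NSD2 was the 1 member of 64 with a 3′ UTR peak (1.56%, 0.276 to 8.33%), against 1.99% of coding genes.

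NSD2, a methyltransferase of histone H3, had 13 HNRNPC peaks and ranked 56 among all coding genes. Its first intron held 10 of them, of 14 to 64 tags, between chr4:1877521 and chr4:1895764. The tallest, 64 tags at chr4:1892198-1892439, lay at an antisense Alu-like match with a U run before it, while 7 of the other 9 had no Alu-like match. GUGUCA ended this tallest peak and the first-intron peaks of 45 and 37 tags. Its 3′ UTR peaks, at chr4:1947081-1947215 (16 tags) and chr4:1948380-1948566 (14 tags), lay 68.4 and 69.6% of the way along the gene, in the 3′ UTR of a shorter transcript and not at the gene's last end. The last peak, of 26 tags, was in intron 16 of 21.

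EZH2, the catalytic subunit of a Polycomb repressive complex, had the tallest member peak. At 426 tags in intron 1 of 19 it was the 2nd highest of 9107 in the list, and a neighbour just downstream had 52 tags. Both lay at an antisense Alu-like match with a U run upstream. The other members came far below, with 60 tags in intron 2 of NSD1, a relative of NSD2, and 48 tags in intron 10 of KDM4B. These NSD1 and KDM4B peaks ended in GUGUCA, and neither EZH2 peak did.

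KDM4B, a demethylase of histone H3, had 7 HNRNPC peaks of 9 to 48 tags, all in introns and none at an Alu-like match. Intron 9 of 22 held 4 of them, of 26, 11, 17 and 11 tags, and none of these ended in GUGUCA. The KDM4B peaks of 9, 14 and 48 tags did. Its relative KDM4A had 3 peaks of 11, 11 and 17 tags, the last in coding sequence, and KDM4C had 1 of 14 tags, which ended in GUGUCA. KDM2A, a demethylase with a CpG-binding domain, had 3 peaks of 8 to 10 tags in its first 2 introns. SETD2, which methylates histone H3 along transcribed genes, had 3 of 12, 14 and 21 tags, all in intron 1 and at antisense Alu-like matches. Of these the 21-tag peak ended in GUGUCA.

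The 6 acetyltransferase and 7 deacetylase HNRNPC peaks had median heights of 9.5 and 9 tags, beside 11 tags for the list, and are too few to show a difference. CREBBP, a coactivator with acetyltransferase activity, had peaks of 10 tags in intron 11 and 22 tags in a non-coding exon. KAT6B had 7 and 9 tags in intron 3, and KAT8 had 10 tags in a non-coding exon. HDAC4, a deacetylase that shuttles between nucleus and cytoplasm, had 9 and 8 tags. Its relative HDAC7 had 37 tags in intron 1, and HDAC6, a mostly cytoplasmic tubulin deacetylase, had 16 tags in a non-coding exon. The HDAC4 peaks and the only peaks of KAT8, HDAC6 and HDAC7 ended in GUGUCA, and those of CREBBP and KAT6B did not. The coding-sequence peaks of KDM5C (7 tags), KMT2D (11 tags) and KDM4A (17 tags) all had GUGUCA at their end, and the 5′ UTR peak of KMT5B (12 tags), a histone H4 methyltransferase, did not. EP300, the relative of CREBBP, and KAT14 had no HNRNPC peak.

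**Figure D3:**
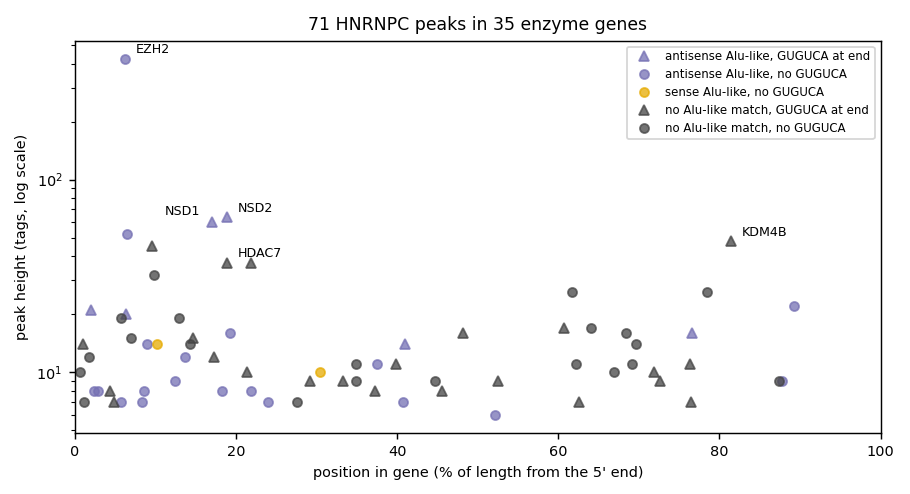
Height in tags (log axis) of the 71 HNRNPC peaks in 35 genes against their position in the gene, in percent of its length from the 5′ end. Colour gives the Alu-like match and triangles mark GUGUCA at the peak end. The EZH2 peak of 426 tags stands above all others in the plot.

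Runs of at least 5 U in the 50 nt upstream were found at 20 of 59 member intron peaks, or 33.9% (23.1 to 46.6%), against 31.5% of HNRNPC intron peaks in the list. Antisense Alu-like matches were found at 23 of 59 (39%, 27.6 to 51.7%) against 34.6%. The 2 features went together as descriptions, with a U run at 16 of the 23 antisense Alu-like peaks and 4 of the 34 without an Alu-like match. Over the list these shares were 63.3% of 2693 and 14.8% of 4983. GUGUCA ended 29 of all 71 member peaks (40.8%, 30.2 to 52.5%) against 36.2% of the list, and its part in peak height or place was not tested. It ended 5 of the 23 antisense Alu-like intron peaks (21.7%) and 16 of the 34 without an Alu-like match (47.1%), close to the 17.9 and 47.2% of the list.

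The first 25% of the gene held 36 of the 71 HNRNPC peaks (50.7%, 39.3 to 62%), against 35.9% over the list, and 26 of 58 (44.8%, 32.7 to 57.5%) without NSD2. First introns of canonical transcripts held 27 of 59 HNRNPC intron peaks of the members (45.8%, 33.7 to 58.3%), against 38.8% over the list. First introns make up 15% of the members' intron length and 24.6% of that of all coding genes. NSD2 gave 10 of the 27, and without it the share was 17 of 48 (35.4%, 23.4 to 49.6%) against 38.7%.

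PABPC4 peaks were more numerous in every class, with 239 in methyltransferases, 135 in demethylases, 81 in acetyltransferases and 67 in deacetylases. The PABPC4 list is also the longer, with 63507 peaks against 9107 for HNRNPC, and members held 522 and 71 of these. Over the genes' whole length there were 8.36 per 100 kb in all members and 5.03 in all coding genes. Among genes with a PABPC4 peak the median was 9.53 per 100 kb in members and 10.3 in all coding genes. NSD2 had 40, KMT2C, an enhancer methyltransferase, had 36, and KDM2A had 34. Gene length and number of PABPC4 peaks rose together over the 64 members (Spearman's rho 0.82, a description over genes of 1 list) and over all coding genes (0.48). For HNRNPC the values were 0.45 and 0.34.

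Introns held 343 of the 522 PABPC4 peaks, or 65.7% (61.5 to 69.7%), against 60.2% of the list, and 3′ UTRs held 106, or 20.3% (17.1 to 24%), against 29.8%. Coding sequence held 49 (9.39%, 7.17 to 12.2%) against 5.04%, non-coding exons held 23 (4.41%, 2.95 to 6.52%) against 3.87%, and 1 peak was in a 5′ UTR (0.192%, 0.0338 to 1.08%) against 0.424%. The list's intron, 3′ UTR and coding-sequence shares lay outside the members' intervals, which treat peaks of 1 gene as independent although they share a transcript. NSD2, KMT2C and KDM2A gave 32, 26 and 28 of the 343 intron peaks, and the feature shares were not taken without these genes.

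Most intron peaks stood beside genomic A stretches. An A-rich stretch (a run of 6 A, or 7 A among 10 bases) lay within 50 nt downstream of 242 of 343 member intron peaks (70.6%, 65.5 to 75.1%), against 71.2% of the list. A sense Alu-like match was found at 214 (62.4%, 57.2 to 67.4%) against 53.1%, and at 149 of 257 (58%, 51.9 to 63.9%) without NSD2, KMT2C and KDM2A, against 53% of the list without them. A poly(A) signal ended 11 of 343 (3.21%, 1.8 to 5.65%) against 6.4%. A signal without an A-rich stretch was found at 5 member intron peaks (1.46%, 0.624 to 3.37%) against 2.12%, in HDAC9, KAT6A, KMT2C, NSD1 and NSD2, of 12 to 54 tags, and these names were chosen after their values were seen. First introns held 77 of 341 member intron peaks (22.6%, 18.5 to 27.3%) against 27.9%.

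Coding-sequence peaks resembled the intron peaks in this feature, with an A-rich stretch downstream of 35 of 49 (71.4%, 57.6 to 82.2%) against 62%. KDM5A, a demethylase of histone H3, had 7 of the 49, and KMT2A and KMT2C had 5 each. Whether such peaks mark tails or primer at internal A stretches was not tested.

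Of the 106 3′ UTR peaks, 102 lay in the 3′ UTR of the member itself, in 50 genes. The other 4 were listed under a member but lay in another gene. The KAT2A entry of 327 tags (chr17:42124981-42125076) was in the 3′ UTR of RAB5C, the KAT14 entry of 105 tags (chr20:18143092-18143166) in that of PET117, the HDAC10 entry of 27 tags in that of MAPK12, and the KMT2A entry of 13 tags in an unnamed gene. The tallest member entry of all, 795 tags at chr4:1974635-1974762 in NSD2, covered SCARNA22 (chr4:1974636-1974760), a small Cajal body RNA inside the gene, and was listed under both gene IDs. It was the 266th highest of 63507.

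A poly(A) signal was found in the last 40 nt of 49 of the 106 (46.2%, 37 to 55.7%), against 48.6% of PABPC4 3′ UTR peaks in the list. An A-rich stretch lay downstream of 40 (37.7%, 29.1 to 47.2%) against 31.9%. An annotated transcript end lay within 50 nt of 61 (57.5%, 48 to 66.5%) against 54.6%. All 3 list shares lay inside the members' intervals. Of the 102 peaks in the member's own 3′ UTR, 41 of the 63 without an A-rich stretch lay within 50 nt of an end of the same gene (65.1%, 52.8 to 75.7%), against 60.8% of such peaks in the list, and 16 of the 39 with one did (41%, 27.1 to 56.6%), against 41.7%. Median height was 53 tags for the peaks within 50 nt of an end and 35 tags for those farther off.

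**Figure D4:**
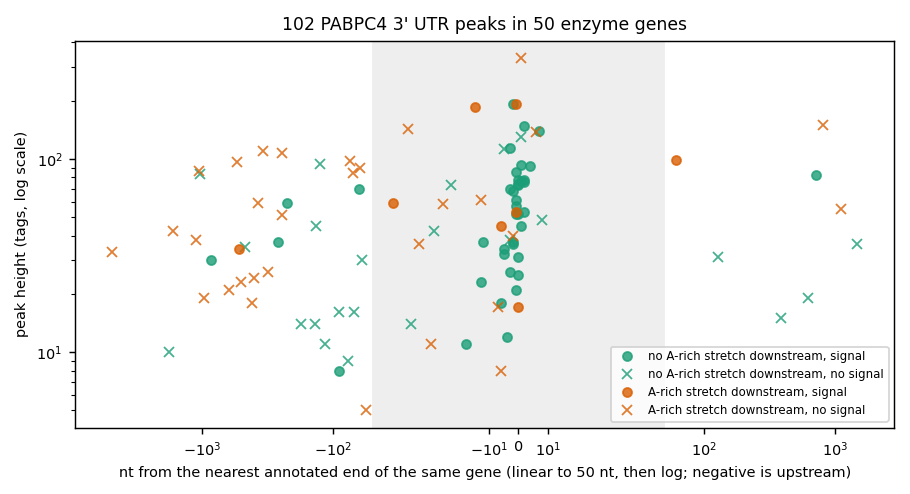
Height in tags (log axis) of the 102 PABPC4 peaks in the members' own 3′ UTRs against distance in nt to the nearest annotated end of the same gene (linear to 50 nt, then log), with the 50-nt window shaded. Of the 63 peaks without an A-rich stretch (green), 41 lie in the window, and 34 of these also carry a poly(A) signal (filled circles).

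KAT14, a histone acetyltransferase subunit, had 1 PABPC4 peak in its own 3′ UTR, 37 tags at chr20:18187997-18188033. It ended 2 nt upstream of an annotated end, carried AATAAA and had no A-rich stretch downstream. This peak lies inside the region that the study cloned for its reporter, and no second PABPC4 peak was listed there. The study states that RT-PCR could detect use of both sites in MDA-MB-231 cells. A peak missing from the list does not show that a site was unused. The other 2 KAT14 entries were the PET117 peak and an intron peak of 52 tags (chr20:18178056-18178103) at a sense Alu-like match.

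Several enzymes had more than 1 peak in their own 3′ UTR. This held for 28 of the 50 genes (56%, 42.3 to 68.8%), against 50% of the genes with such a peak in the list. Leaving out peaks with an A-rich stretch, it held for 15 (30%, 19.1 to 43.8%), against 32.1%. The tallest peak was the most distal in 15 of the 28 and another in 13. The same share was not taken over the list, so these counts show no trait of the members. These peaks are not all tandem ends of 1 3′ UTR. First and last lay 45 nt apart in HDAC2 but 38806 nt in NSD2, 44021 nt in KDM5B, 77464 nt in KMT2A and 333575 nt in HDAC9, in 3′ UTRs of different transcripts. NSD1 had 36 tags at a proximal end and 129 tags 4459 nt farther on, each within 2 nt of an annotated end and neither A-rich. CREBBP showed the other order, with 82 tags proximal and 23 tags 1756 nt downstream, both with a signal. The 82-tag peak lay 716 nt from the nearest annotated end. KDM2A, over 1680 nt, had 112, 76 and 36 tags from proximal to distal, the last with an A-rich stretch. KAT2A had 31 and 114 tags, with the 31-tag peak 128 nt from an annotated end and without a signal. KDM4B had 11, 14 and 92 tags, with an A-rich stretch at the 11-tag peak and the 14-tag peak 177 nt from an annotated end.

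The 40 3′ UTR peaks with an A-rich stretch had a median of 52 tags, and the 66 without one had 43.5. SETD5 had 331 tags at a proximal end with an A-rich stretch and no signal, and 11 tags at a distal end with a signal. SETD7, a lysine methyltransferase, had 191 tags beside 1 of its ends, with both a signal and an A-rich stretch. KDM5C had 186 tags with both, and KDM5A had 149 tags, KAT6A 138 tags and EP300 96 tags with an A-rich stretch and no signal. Without an A-rich stretch stood NSD2 with 192 tags at 2 nt from its last end, HDAC2, a nuclear deacetylase, with 147, its close relative HDAC1 with 78, and HDAC7 with 74.

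Peaks of the 2 proteins were compared by gene and by place. All 35 members with an HNRNPC peak also had a PABPC4 peak (54.7% of members, 42.6 to 66.3%, against 18.7% of coding genes), as did 3731 of the 3814 coding genes with an HNRNPC peak. For KAT8 the only PABPC4 entry, of 8 tags, lay within the gene but in an exon annotated to another, unnamed gene. Of the 71 HNRNPC peaks, 1 overlapped a PABPC4 peak (1.41%, 0.249 to 7.56%), in the first intron of NSD2, against 0.944% of the list. Within 100 nt it was the same 1 peak, against 2.26%. The median distance to the nearest PABPC4 peak of the same gene was 3428 nt (quartiles 1268 and 5700 nt). It was 5774 nt for the tall EZH2 peak, whose nearest PABPC4 peak, in the same intron, had 183 tags and an A-rich stretch.

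**Figure D5:**
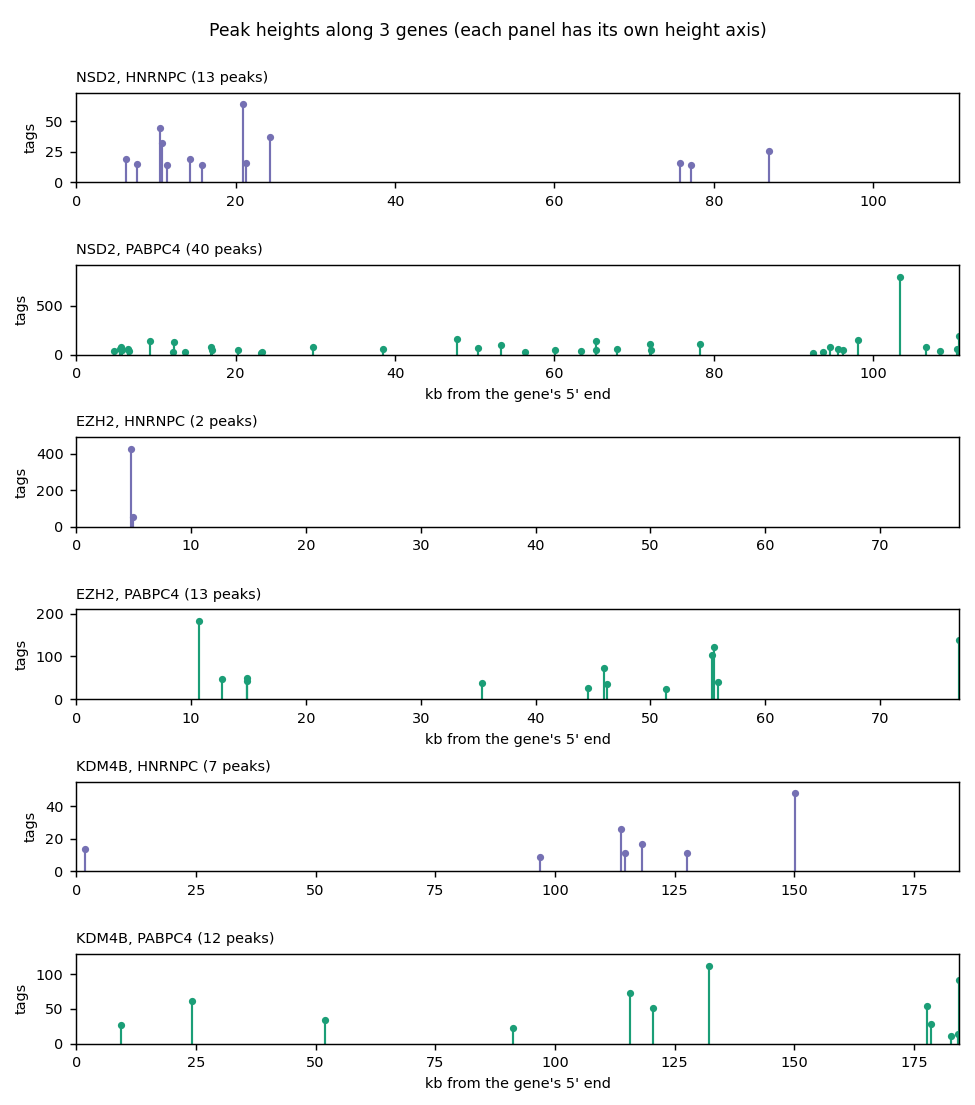
Peak heights in tags along NSD2, EZH2 and KDM4B, in kb from the 5′ end of each gene, with HNRNPC above PABPC4 and a separate height axis in each panel. HNRNPC peaks of NSD2 gather in the first intron and those of EZH2 are a pair near the start, while PABPC4 peaks run along the whole gene.

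Partner and related genes, a list of 65 names that includes Polycomb, deacetylase-complex and acetyltransferase-complex subunits, sirtuins and other methyltransferases, were counted in the same way. HNRNPC peaks were found in 28 of 65 (43.1%, 31.8 to 55.2%), against 19.1% of coding genes. PABPC4 peaks were found in 62 of 65 (95.4%, 87.3 to 98.4%), against 59.3%. The median gene length of the 65 was 42.9 kb, against 24.1 kb over all coding genes. HNRNPC 3′ UTR peaks were found in EHMT1, GATAD2A, ING5, MBD3 and MTA2, or 5 of 65 (7.69%, 3.33 to 16.8%), against 1.99% of coding genes. The 3′ UTR share of the 64 enzymes was 1.56% (0.276 to 8.33%). The intervals for HNRNPC peaks and for HNRNPC 3′ UTR peaks overlapped those of the 64 enzymes.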

How the data were processed

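The authors pooled the 2 samples of each protein and deposited 1 peak list per protein, called with the CLIP Tool Kit on tags aligned with BWA 0.7.17 to hg38 after UMI-tools and cutadapt, per the labels and the study's methods. The deposited signal of a peak is its height in unique tags, not scaled to depth. Library depth was not analysed here, and intervals cover counting error only. Each position was counted once, leaving out 1281 surplus HNRNPC entries and 6271 surplus PABPC4 entries, of which 1 and 8 member positions were affected. Peak centres were assigned on their strand with GENCODE 44 in the order 3′ UTR, coding sequence, 5′ UTR, non-coding exon, intron. Alu-like matches came from BLAST 2.17.0 of each peak with 100 nt on either side to the RN7SL1 transcript, the RNA Alu derives from (E-value limit 1e-05). GUGUCA was sought from 15 nt before to 10 nt after the peak end. Intervals are 95% Wilson intervals. The sequence of the tallest methyltransferase peak is not reported here. Sequence functions were tested on simulated data. Members and lists were chosen with earlier results of these data known. Genes named were KAT14, members with an HNRNPC peak in UTRs or coding sequence, the 3 members per class with most HNRNPC peaks (ties by summed height) and the 3 with the tallest PABPC4 peak in their own 3′ UTR, and members without peaks. Other genes were named after their values were seen. Alternatives covered stricter p-values, taller peaks, every entry, GENCODE gene spans and other motif windows.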

Additional observations from a re-analysis of the deposited data

How the results depend on the processing

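No paired analysis was possible because each deposited list combines both samples of a protein, which also prevented leaving out a replicate. Of 68 recalculations of results over the members, 52 stayed within 1.5 times the count or inside the interval of the share. Counting every listed entry changed no value of the members or named genes, so that setting only adds to the number that stayed. Keeping peaks at or above the list's median height left 17 members with an HNRNPC peak (26.6%, against 10.7% of coding genes), 39 HNRNPC peaks (median 0 per 100 kb) and 279 PABPC4 peaks (median 3.95 per 100 kb). The authors' p-value of at most 0.001 left a median of 0.165 HNRNPC peaks per 100 kb. Without peaks ending in GUGUCA, 20 members had an HNRNPC peak (31.2%, against 13.2%). Without NSD2, methyltransferases had 1.28 HNRNPC peaks per 100 kb. An E-value limit of 1e-10 gave antisense Alu-like matches at 25.4% of HNRNPC intron peaks. A-rich stretches fell to 23.6% of PABPC4 3′ UTR peaks with a window of 20 nt and to 23.6% with 6 A in a row only, and to 53.1% and 59.2% of intron peaks. A signal sought in the whole peak and 50 nt upstream was found at 5.83% of intron peaks. Annotated ends lay within 100 nt of 68.9% of 3′ UTR peaks, and within 50 nt of 66.7% of those without an A-rich stretch. These settings kept fewer peaks, left out a gene, or changed a window or limit, and why each value moved was not tested. Of 192 recalculations of peak counts of named genes, 24 moved by over 1.5 times, all downwards, 21 of them with the limit on height. A gene with no peak may be unbound or too little covered to give one.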
